A study of Mus musculus with 4 samples.

Results

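The 43 genes described here encode the machines that fold, hold together and separate mitotic chromosomes: condensin, cohesin and its regulators, separase and securin, the spindle checkpoint, the chromosomal passenger complex, the kinetochore and the spindle. They were taken by gene name from a table of 39186 genes, in which all 43 were found once each. RNA had been sequenced from the LSK fraction of the fetal liver (lineage-negative, Sca-1 and c-Kit positive), which is enriched for hematopoietic stem cells, in 2 Pich-KO and 2 Pich-WT samples of the C57BL/6 strain. According to the study's methods, the Pich-KO mice carry a germline TALEN deletion at the start of the second exon of Pich, the gene listed as Ercc6l, and fetal livers were taken at midgestation. All cells of these embryos carry the allele, so LSK cells and their surroundings are both mutant. The labels do not say whether a sample is 1 embryo or a pool, so it is not known whether p-values measure the spread between embryos. They rest on the spread between these samples, with variance information shared over all genes.

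PICH is a DNA translocase that coats the ultrafine DNA bridges that link sister chromatids in anaphase. The complexes described here act on the same chromosomes. Condensin I and II compact chromosomes around the shared ATPases Smc2 and Smc4, and cohesin, a ring of Smc1a, Smc3, Rad21 and a STAG subunit, holds sister chromatids together until separase cuts Rad21. The spindle checkpoint keeps Cdc20 from activating the anaphase-promoting complex while kinetochores lack microtubules, so that securin and cyclin B persist and separase stays inactive. Many of these genes share a promoter class that is switched on late in the cell cycle through CCAAT boxes and the cell cycle homology region.

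The samples held between 14703215 and 20933919 reads that fell on genes, and each member had at least 366 reads in every sample. Values are normalized counts, the reads of a gene divided by the size factor of its sample, and differences are given on the log2(normalized count + 1) scale as Pich-KO minus Pich-WT. The mRNA of Ercc6l had a mean of 1187 ± 63.8 (SD, n = 2) in Pich-KO against 717 ± 78.6 (SD, n = 2) in Pich-WT LSK cells. It was called higher in Pich-KO (log2 fold change 0.73, limma adjusted p = 0.00887), so its level does not check the genotype labels. The study reported loss of PICH protein by western blot in tissue extracts of Pich-KO male embryos. Markers of other cell types differed between the groups under the LSK label. All 12 macrophage markers were lower in Pich-KO LSK cells, and their summed normalized counts were 7915 and 9132 against 55455 and 56359. Of 10 erythroid markers 8 were lower, with sums of 32081 and 35538 against 136290 and 178251, and all 6 endothelial markers were lower, with sums of 1506 and 2489 against 23053 and 34378. Of 8 neutrophil granule genes 3 were higher, namely Mpo, Prtn3 and Ctsg. The sums of this list were 64253 and 120281 against 15928 and 18563. Mpo alone held 54647 and 90492 of them against 10351 and 12533. The other 5 did not pass. S100a8, S100a9, Ltf and Camp lay below both Pich-WT samples in Pich-KO sample 1 and above both in sample 2. Of 8 hepatoblast genes 6 were lower, and of 10 genes of B, T and NK cells 4 were lower. Of 10 LSK genes Ly6a, which encodes Sca-1, was higher and 3 were lower, namely Slamf1, Mecom and Hlf. No list had a marker at 0 in all 4 samples. Pich-WT sample 2 had 0 reads on 4 Y-linked genes, against 1607 to 2848 in the other samples. Its normalized count of Xist was 699, against 9.38 in Pich-WT sample 1 and 14.2 and 4.55 in Pich-KO. By these genes the Pich-WT samples differ in sex, while both Pich-KO samples are male. The labels do not give sex. This matters for the X-linked members Smc1a and Stag2, and its part in other genes was not tested. The part of these differences in the results for the 43 genes was not tested, and in bulk samples fewer cells of a type and less RNA per cell cannot be told apart.

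Promoter letters of 6 members are shown because many of these genes belong to the promoter class named above, and because both genes that rose and genes that did not pass the test carry the same letters. RefSeq promoters on GRCm38.p6 matched 34 of the 43 members. The windows run from 120 bases to 1 base before the annotated start, 5′ to 3′ on the strand of the gene, and capitals mark TTTGAA, the core of the cell cycle homology region, and CCAAT, or their reverse complements TTCAAA and ATTGG.
Espl1 (chr15:102296173-102296292, plus strand): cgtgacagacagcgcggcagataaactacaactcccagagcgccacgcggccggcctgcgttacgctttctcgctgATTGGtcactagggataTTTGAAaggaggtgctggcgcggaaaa
Ncapg2 (chr12:116405316-116405435, plus strand): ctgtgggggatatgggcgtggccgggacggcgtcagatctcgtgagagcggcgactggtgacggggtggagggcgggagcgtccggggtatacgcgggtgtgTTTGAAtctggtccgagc
Kif11 (chr19:37376262-37376381, plus strand): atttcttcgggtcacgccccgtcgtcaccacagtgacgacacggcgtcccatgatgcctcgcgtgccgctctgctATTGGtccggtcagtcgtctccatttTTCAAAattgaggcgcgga
Pds5b (chr5:150673707-150673826, plus strand): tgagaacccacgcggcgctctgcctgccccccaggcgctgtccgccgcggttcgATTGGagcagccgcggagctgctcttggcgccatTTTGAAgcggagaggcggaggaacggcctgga
Cdc20 (chr4:118437344-118437463, minus strand): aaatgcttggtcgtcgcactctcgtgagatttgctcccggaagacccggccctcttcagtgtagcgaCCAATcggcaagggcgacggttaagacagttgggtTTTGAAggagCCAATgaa
Ncapg (chr5:45669805-45669924, plus strand): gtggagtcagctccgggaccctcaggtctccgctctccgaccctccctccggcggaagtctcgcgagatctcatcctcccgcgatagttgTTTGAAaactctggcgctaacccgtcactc
Of these, Espl1, Ncapg2, Kif11 and Pds5b were higher in Pich-KO LSK cells, and Cdc20 and Ncapg did not pass the test. Cdc20 held a CCAAT on each side of its homology core, and neither Ncapg2 nor Ncapg held a CCAAT in this stretch. In the window from 250 bases before to 50 bases after the start, TTTGAA on either strand was found in 55.9% of the 34 matched members. It was found in 20.2% of 27025 genes with promoters. A gene was counted if any of its promoters held the letters. CCAAT was found in 61.8% of the members and 41.1% of all genes, and the E2F letters GCGGGAA in 14.7% and 5.29%. With the 50 bases after the start left out, TTTGAA fell to 29.4% of members and 18.3% of all genes, while CCAAT stayed at 61.8% of members against 37.5%. In the wider window TTTGAA was in 6 of the 10 matched members that were higher, in 1 of 3 that were lower and in 12 of 21 that did not pass, and in the 250 bases before the start it was in 5, 0 and 5 of them. CCAAT was in 6 of 10, 2 of 3 and 13 of 21 in either window. GCGGGAA was in 3 of 10, 1 of 3 and 1 of 21 in the wider window and in 3, 0 and 0 before the start. These counts were not tested. A match is only a description of letters in this window. The TTTGAA of Ncapd3, the TTTGAA and CCAAT of Cdca8, and the CCAAT and GCGGGAA of Stag1 came from annotated starts well inside these genes. Those starts were at 27060416, 124936917 and 100643448. The genes begin at 27030175, 124939311 (Cdca8, minus strand) and 100597798.

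Of the 43 genes, 12 were higher and 3 were lower in Pich-KO LSK cells, and 28 did not pass the test (limma, adjusted p under 0.05 over all genes). Among all 32428 genes tested, 7.58% were called higher and 9.6% lower. The members are well-expressed genes, and among the 10544 genes with a mean normalized count of at least 100 the shares were 21.1% higher and 22.4% lower, against 27.9% and 6.98% of the members. The share of members called higher was thus near that of other well-expressed genes, and the share called lower was under it. The log2 fold change was positive in 32 members and negative in 11, with a median of 0.20 against 0.02 for all genes tested. Both Pich-KO samples lay above both Pich-WT samples for 23 members (53.5%) and below them for 8 (18.6%). Of all genes tested 28.9% lay above and 27.2% below, and of those with a mean of at least 100 41.7% and 38.3%. edgeR on the reads recovered from the table called the same 15 members and added Ncapd2, Spc24 and Aurka as higher, which makes 15 higher and 3 lower. By edgeR 18.6% of 16608 genes were higher and 20.7% lower, and at a mean of at least 100 the shares were 26.2% and 24.4%. The plot of normalized counts by role shows the separation of the groups for each gene.

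**Figure D1:**
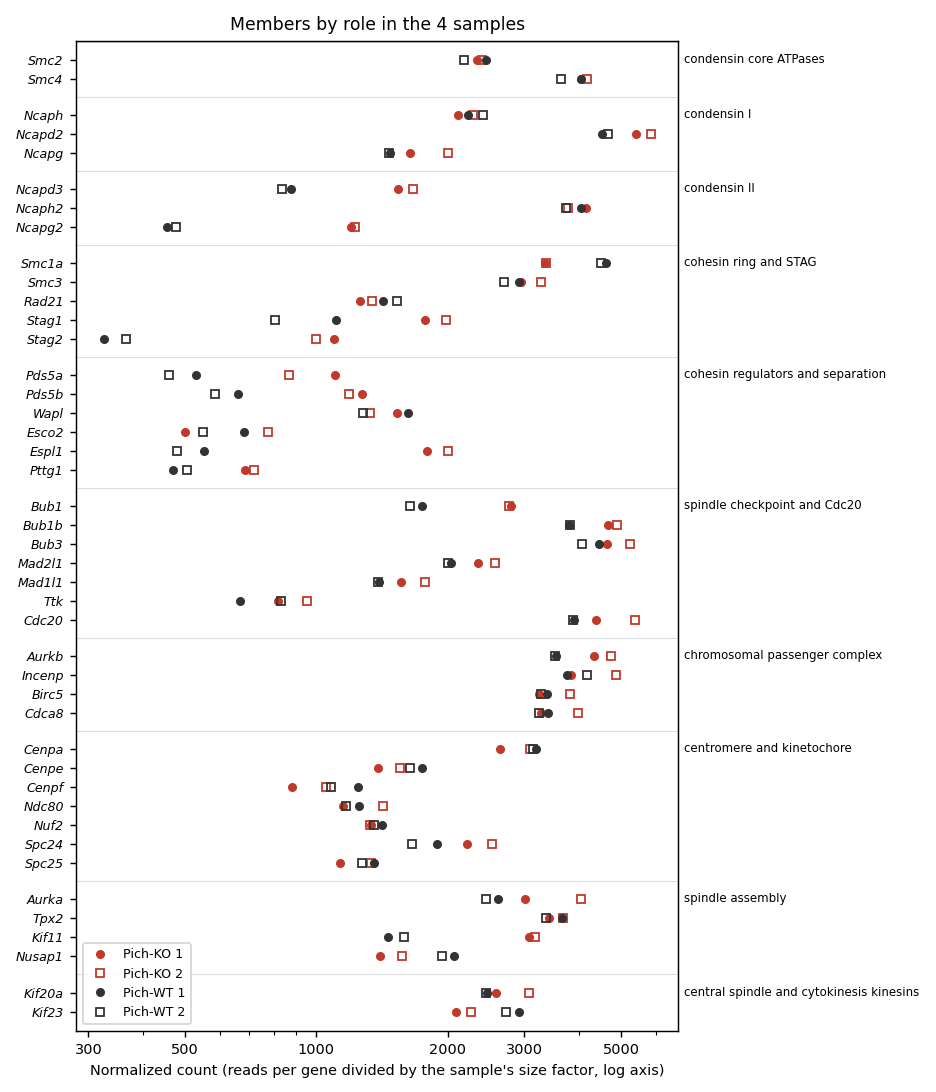
Normalized counts of the 43 members (x axis, log scale) in 2 Pich-KO samples (red) and 2 Pich-WT samples (black), grouped by role, with circles for sample 1 and open squares for sample 2 of each group. The groups are far apart for Espl1, Stag2, Ncapg2 and Kif11, and 12 members overlap between groups.

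In condensin the genes that passed were those of condensin II. The non-SMC subunits Ncapd3 and Ncapg2 of condensin II, the complex that sits in the nucleus through interphase and starts chromosome folding, were higher in Pich-KO LSK cells. Ncapg2 (ENSMUSG00000042029, GRCm38 chromosome 12, 116405402 to 116463731, plus strand) had normalized counts of 1201 and 1228 in Pich-KO LSK cells, against 455 and 477 in Pich-WT LSK cells. The lowest Pich-KO sample was well above the highest Pich-WT sample, at a fold of 2.61 between means and a log2 fold change of 1.38 (standard error 0.13, limma adjusted p = 0.000372). Ncapd3 (chromosome 9, 27030175 to 27095315, plus strand) had 1542 and 1662 against 874 and 833. The groups were again far apart, with a log2 fold change of 0.91 (standard error 0.12, limma adjusted p = 0.00166). The third subunit, the kleisin Ncaph2, had 4159 and 3775 against 4043 and 3748, and these values interleaved (log2 fold change 0.03, limma adjusted p = 0.904).

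The ATPases that both condensins share were close between genotypes. Smc2 had 2332 and 2404 in Pich-KO against 2446 and 2180 in Pich-WT, and Smc4 had 4046 and 4172 against 4044 and 3637. Neither passed, with log2 fold changes of 0.04 and 0.10. Of the condensin I subunits, which reach chromosomes once the nuclear envelope breaks down, the kleisin Ncaph had 2114 and 2293 against 2223 and 2412 and overlapped between groups. Ncapd2 had 5401 and 5848 against 4519 and 4674, and Ncapg had 1640 and 2002 against 1475 and 1465. Both sets of values lay above those of Pich-WT without passing the test (limma adjusted p = 0.0591 and 0.171), and Ncapd2 passed by edgeR (adjusted p = 0.0346).

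Per kilobase of exon, the non-SMC subunits were at very unequal levels, and the genes that rose were the lower ones. In Pich-WT LSK cells the mean was 46.9 normalized counts per kb for Ncapg2, 108 for Ncapd3 and 208 for Ncapg, against 733 for Ncapd2, 538 for Ncaph and 928 for Ncaph2. The ratio of Ncapg2 to Ncapg per kb was 0.520 and 0.436 in Pich-KO, against 0.219 and 0.231 in Pich-WT. The ratio of Ncapd3 to Ncapd2 was 0.227 and 0.226 against 0.154 and 0.142. For the kleisins the samples interleaved, with Ncaph2 per Ncaph at 2.02 and 1.69 against 1.87 and 1.59, and Smc4 per Smc2 stood at 1.82 in both Pich-KO samples against 1.74 and 1.75. With 2 samples a group an exact permutation test of a single ratio cannot go below p = 0.333, so these ratios are given without a test.

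**Figure D2:**
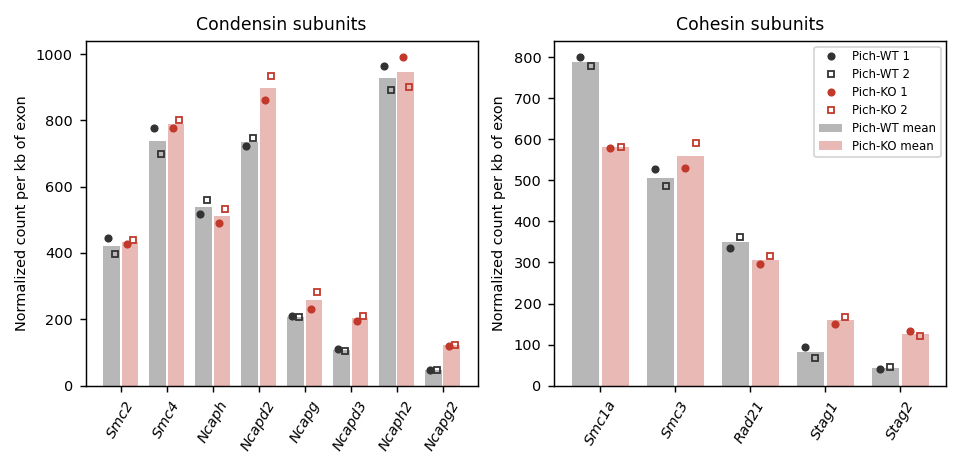
Normalized count per kb of exon (y axis) of the condensin subunits (left) and the cohesin subunits (right), as the mean of 2 samples (bars) and each sample (circles for sample 1, open squares for sample 2), with Pich-WT in grey and Pich-KO in red. Ncapg2, Ncapd3, Stag1 and Stag2 are among the lower subunits and stand higher in Pich-KO, and Smc1a falls from 789 to 580 per kb.

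In cohesin the STAG subunits rose and one core subunit fell. Stag2 (ENSMUSG00000025862, GRCm38 chromosome X, 42149317 to 42277185, plus strand), which with its paralog Stag1 forms the docking surface of the ring, had normalized counts of 1099 and 999 in Pich-KO and of 325 and 366 in Pich-WT LSK cells. It was thus 3.04-fold higher, with no overlap and a log2 fold change of 1.60 (standard error 0.15, limma adjusted p = 0.000337). Stag1 had 1777 and 1981 against 1111 and 804. The Pich-WT samples differed from each other more than for Stag2, and the log2 fold change was 0.99 (standard error 0.17, limma adjusted p = 0.00516). The ratio of Stag2 to Stag1 per kb was 0.881 and 0.718 against 0.417 and 0.648, so the second Pich-WT sample came close to the Pich-KO samples. Smc1a (chromosome X, 152016428 to 152062694, plus strand) had 3339 and 3359 against 4618 and 4488. Its Pich-KO values were both lower, by 0.44 on the log2 scale (standard error 0.09, limma adjusted p = 0.0102). The pair of X-linked members therefore moved in opposite directions. The Pich-WT sample without Y-linked reads had 366 for Stag2 and 4488 for Smc1a, against 325 and 4618 in the other Pich-WT sample. The part of sex in either difference was not tested.

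The partners of Smc1a did not fall with it. Smc3, the other ATPase of the ring, had 2943 and 3270 against 2922 and 2695 (log2 fold change 0.14, limma adjusted p = 0.436). The kleisin Rad21, the substrate of separase, had 1256 and 1339 against 1423 and 1531, lower in both Pich-KO samples without passing (log2 fold change −0.19, limma adjusted p = 0.36). Smc3 per Smc1a was 0.918 and 1.01 in Pich-KO against 0.659 and 0.625 in Pich-WT per kb of exon.

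Of the 6 genes that regulate or end cohesion, 4 were higher. Espl1 (ENSMUSG00000058290, GRCm38 chromosome 15, 102296266 to 102324357, plus strand), which encodes separase, the protease that opens cohesin at anaphase, had 1790 and 2001 in Pich-KO against 552 and 480 in Pich-WT. It had the largest difference of the 43 members, a fold of 3.67 and a log2 fold change of 1.88 (standard error 0.14, limma adjusted p = 0.000117). Pttg1, which encodes securin, the inhibitor that separase is bound to before anaphase, had 686 and 718 against 469 and 504. It was higher as well, at a smaller log2 fold change of 0.53 (standard error 0.14, limma adjusted p = 0.0406). Espl1 per Pttg1 was 0.596 and 0.637 in Pich-KO against 0.269 and 0.218 in Pich-WT per kb.

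The paralogs Pds5a and Pds5b, which bind the ring and govern its release and acetylation, rose by nearly the same amount. Pds5a had 1104 and 864 against 529 and 459, and Pds5b had 1275 and 1190 against 663 and 585. Their log2 fold changes were 0.99 and 0.98 (limma adjusted p = 0.00547 and 0.00200), and Pds5b per Pds5a stayed between 2.27 and 2.71 in all 4 samples. Wapl, which opens the ring outside anaphase, had 1531 and 1331 against 1621 and 1282. Esco2, the acetyltransferase that locks cohesin in S phase, had 501 and 773 against 683 and 550. Both overlapped between the groups, with log2 fold changes of −0.01 and 0.02, and the sign of each turned under another scaling, as given with the other settings.

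The 7 checkpoint genes, with Cdc20, all had positive differences, of which Bub1 and Bub1b passed. Bub1, the kinase that marks centromeric chromatin and recruits other checkpoint proteins, had 2798 and 2772 in Pich-KO against 1745 and 1637 in Pich-WT. The groups were far apart at a fold of 1.65 (log2 fold change 0.72, standard error 0.10, limma adjusted p = 0.00227). Bub1b, which encodes BubR1 of the mitotic checkpoint complex, had 4656 and 4900 against 3792 and 3813. Its difference was smaller, with a log2 fold change of 0.33 (standard error 0.09, limma adjusted p = 0.0359). The others did not pass, with log2 fold changes of 0.21 for Bub3, 0.28 for Mad2l1, 0.26 for Mad1l1, 0.24 for the kinase gene Ttk and 0.32 for Cdc20. Of these only Ttk overlapped between groups. Cdc20, the target of the checkpoint and the member with the highest level per kb, had 4391 and 5376 against 3905 and 3870. Sample 2 set much of the distance between the Pich-KO and Pich-WT means (limma adjusted p = 0.0966).

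In the chromosomal passenger complex, which corrects faulty attachments at the inner centromere, the kinase gene Aurkb was higher and its partners did not pass. Aurkb had 4334 and 4736 in Pich-KO against 3543 and 3528 in Pich-WT (log2 fold change 0.36, standard error 0.09, limma adjusted p = 0.0323). The scaffold Incenp had 3837 and 4871 against 3751 and 4186, Birc5 (survivin) 3242 and 3822 against 3376 and 3283, and Cdca8 (borealin) 3280 and 3977 against 3393 and 3243. For these 3 partners the groups overlapped and the second Pich-KO sample was the highest of the 4. Their log2 fold changes were 0.13, 0.08 and 0.12.

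Of the 7 centromere and kinetochore genes 0 passed by limma, 1 (Spc24) had an unadjusted p under 0.05 and passed by edgeR, and 5 of them had negative differences. The centromeric histone gene Cenpa had 2641 and 3095 against 3184 and 3139, and the kinesin gene Cenpe had 1383 and 1557 against 1748 and 1642. Cenpf had 881 and 1055 against 1247 and 1082. These 3 genes were lower in both Pich-KO samples than in both Pich-WT samples, by 0.15, 0.21 and 0.27 on the log2 scale (limma adjusted p = 0.454, 0.307 and 0.281).
The Ndc80 complex, which binds the microtubule end, was uneven. Spc24 had 2216 and 2535 against 1892 and 1658, and its log2 fold change of 0.42 passed by edgeR (adjusted p = 0.0244) but not by limma (adjusted p = 0.0525). Its partner Spc25 had 1132 and 1332 against 1355 and 1272, so Spc24 per Spc25 was 2.43 and 2.36 against 1.73 and 1.62 per kb. Ndc80 and Nuf2, the other pair of the complex, had log2 fold changes of 0.08 and −0.06.

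**Figure D3:**
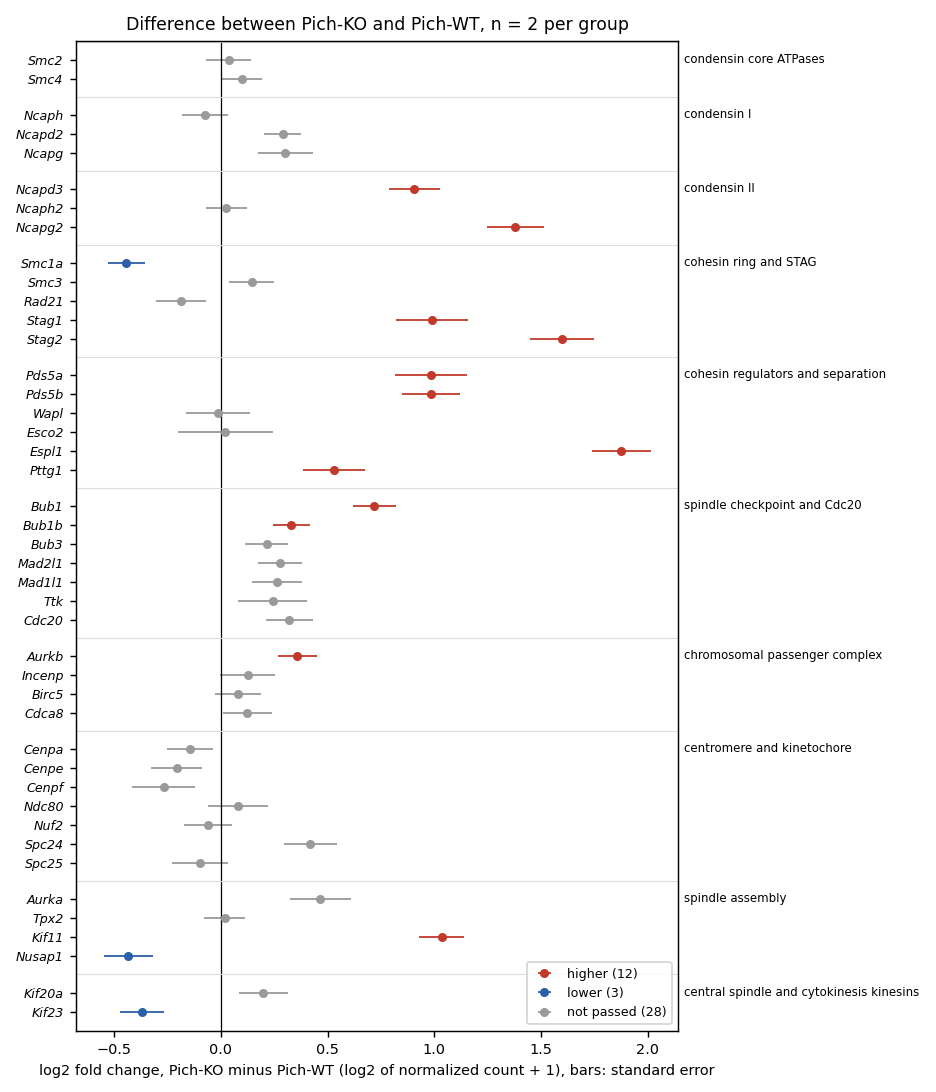
Log2 fold change of each member (x axis, Pich-KO minus Pich-WT, n = 2 a group) with its standard error from limma as bars, grouped by role. Red marks 12 genes called higher, blue 3 genes called lower and grey 28 genes that did not pass.

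The spindle genes split in both directions. Kif11 (ENSMUSG00000012443, GRCm38 chromosome 19, 37376403 to 37421859, plus strand), the kinesin-5 motor that pushes spindle poles apart, had 3068 and 3176 in Pich-KO against 1457 and 1593 in Pich-WT. It was 2.05-fold higher with no overlap (log2 fold change 1.03, standard error 0.11, limma adjusted p = 0.000485). Nusap1, a microtubule-binding protein of the spindle, had 1402 and 1574 against 2072 and 1942. It was lower by 0.43 on the log2 scale (standard error 0.12, limma adjusted p = 0.0383). Nusap1 shares 172 exon bases with the opposite-strand gene Oip5, whose mean was 20.6% of that of Nusap1. The library kit does not mark strand, so reads on the shared bases cannot be told apart, and Oip5 itself was higher in Pich-KO. Aurka, the centrosomal kinase, had 3017 and 4058 against 2613 and 2455 and passed by edgeR (adjusted p = 0.0380) but not by limma (adjusted p = 0.0651). Tpx2, which activates that kinase on the spindle, had 3426 and 3673 against 3655 and 3358 and overlapped between groups (log2 fold change 0.02).

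Of the kinesins of the central spindle, Kif23 was lower. Kif23, the motor of centralspindlin, had 2094 and 2259 in Pich-KO against 2913 and 2717 in Pich-WT, lower by 0.37 on the log2 scale (standard error 0.10, limma adjusted p = 0.0446). Racgap1, its partner in centralspindlin and not among the 43 genes, had 3520 and 3428 against 4547 and 4657, and was lower by 0.41 (limma adjusted p = 0.0150). Kif20a, which carries the passenger complex to the midzone, had 2587 and 3070 against 2464 and 2445 and did not pass (log2 fold change 0.20). It shares 1271 exon bases with the opposite-strand gene Cdc23, whose mean was 96.1% of its own, so its reads are uncertain without strand. Altogether 9 of the 43 genes share exon bases with a listed gene on the opposite strand, and for 4 of them, Cdc20, Kif20a, Ncapg and Nusap1, that gene was at 10% of the member or more.

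The calls were not equally firm. Without each sample in turn, edgeR called 9 members in all 4 fits, and all 9 were higher: Ncapd3, Ncapg2, Stag1, Stag2, Pds5a, Pds5b, Espl1, Bub1 and Kif11. These are also the 9 members with a log2 fold change over 0.6, a limit chosen after the values had been seen. They make up 20.9% of the members, and 20.6% of the 16567 genes fitted in all 4 fits were called in each, which is about the same share. Among genes with a mean of at least 100 it was 28.7%, above that of the members. The other 6 members called by limma, Smc1a, Pttg1, Bub1b, Aurkb, Nusap1 and Kif23, were lost in 2 of the 4 fits, those without a Pich-WT sample. With limma itself, leaving out Pich-KO sample 1 kept 5 members called higher, and leaving out any other sample left 0, with 11 to 17 members at an unadjusted p under 0.05. A limma fit in which the prior variance does not follow the mean called 0 genes in the table, with 7377 genes and 9 members at an unadjusted p under 0.05.

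The Pich-KO samples were not alike in these genes. Of the 43 members 36 had a higher normalized count in the second Pich-KO sample than in the first, where 50.4% of all genes tested were. Among the 9 members with the largest differences 5 were higher in sample 2, and among the other 34 members 31 were. The median log2 fold change of the members was 0.10 for Pich-KO sample 1 against the Pich-WT mean and 0.32 for sample 2, and without Pich-KO sample 1 edgeR called 25 members higher. In that fit edgeR called 20.2% of all 18281 genes higher, and 31.2% of those with a mean of at least 100. Pich-KO sample 2 also had the higher sum of neutrophil granule genes, and all 10 LSK genes were lower in it than in sample 1. The part of either in the difference between these samples was not tested.

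Beyond the 43 genes, 153 genes of neighbouring pathways in 11 lists were read from the same fit, of which 152 could be tested. Of these 33 were higher and 4 lower, with a median log2 fold change of 0.20, equal to that of the members. Called in either direction were 24.3% of the companion genes, 17.2% of all genes tested and 43.55% of those with a mean of at least 100. By direction, 7.58% of all genes tested were higher and 9.6% lower. At a mean of at least 100 these shares were 21.1% and 22.4%, and the counts of each list below stand against them. The largest difference among the companion genes was that of Kntc1. Kntc1, which brings the checkpoint proteins to kinetochores as part of the RZZ complex, had 916 and 854 in Pich-KO against 166 and 192 in Pich-WT (log2 fold change 2.30, standard error 0.17, limma adjusted p = 0.000113). In that list of 19 outer kinetochore and Cenpa loading genes, 3 were higher and 0 lower, and 6 had an unadjusted p under 0.05. The smallest difference called was that of Trip13, a checkpoint ATPase gene, at 0.46. Anapc1, the largest scaffold of the anaphase-promoting complex, had 4572 and 4216 against 1435 and 1260 (log2 fold change 1.71, standard error 0.11, limma adjusted p = 7.67e-05). Of its 18 listed subunits and regulators the only other one called was Cdc27, higher by 1.31.

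Spindle assembly genes outside the 43 held 8 higher and 1 lower of 25. Ckap5, a microtubule polymerase, had 1619 and 1471 against 458 and 407 (log2 fold change 1.84, standard error 0.14, limma adjusted p = 0.000137), and Ckap2l was lower by 0.58. Of 14 other mitotic kinesins and cytokinesis genes Kif15, a motor that backs up Kif11, was higher by 0.84, and Racgap1 was lower. Of 8 genes that load or protect cohesin only Sgo2a, a shugoshin, was called, higher by 0.90, and of 6 genes of the Smc5/6 complex only Smc5 was, higher by 0.53. Of 15 inner centromere genes only Cenpw was called, higher by 0.91. The 5 tested genes of germline cohesin gave 0 calls by limma, with 1 at an unadjusted p under 0.05, and 1 lower by edgeR.

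Genes that drive mitotic entry and the cell cycle also moved in both directions. Of 14 mitotic entry genes 3 were higher, with Ensa at 1.60, and Cdc25b was lower, with 561 and 521 in Pich-KO against 1721 and 1475 in Pich-WT (log2 fold change −1.56, standard error 0.14, limma adjusted p = 0.000266). Of 13 genes of the DREAM, MuvB and FoxM1 group, which acts on promoters of that class, 3 were higher, with Rbl1 at 1.13, and Tfdp2 was lower by 0.92. Of 15 genes of the G1/S transition 10 were higher and 0 lower by limma, with a median log2 fold change of 0.39, from Mcm2 at 0.31 to Ccne1 at 0.63 among those called.

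**Figure D4:**
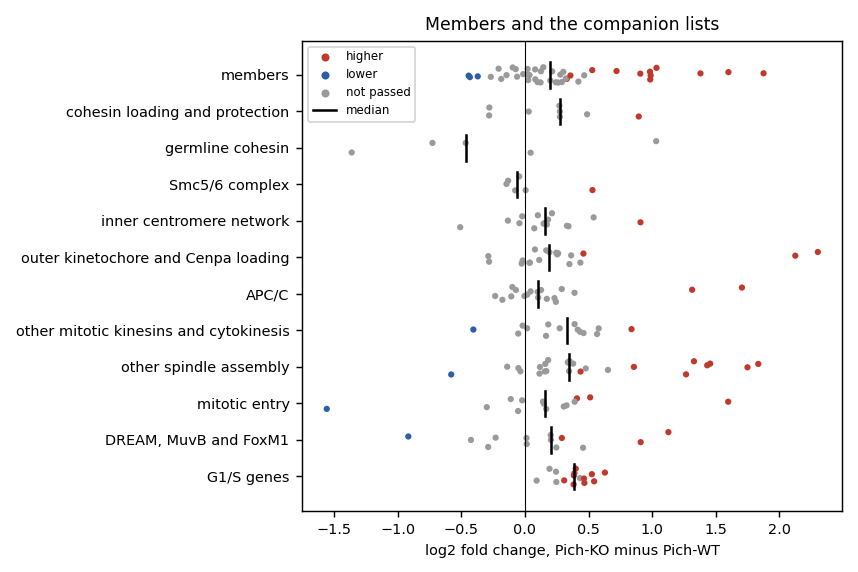
Log2 fold change (x axis, Pich-KO minus Pich-WT) of the 43 members and of the tested genes of the 11 companion lists, 1 point a gene, with red for higher, blue for lower and grey for not passed. Black bars are medians, which lie between −0.47 for germline cohesin and 0.39 for G1/S genes, with 0.20 for the members.

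The members with large differences share a property that played no part in their choice as members. Coding lengths, taken from the longest coding transcript in GENCODE M21, were 3156 to 6354 bases for the 9 members with a log2 fold change over 0.6, with 22 to 35 exons. Of the 19 members with a coding length of 3000 bases or more, a limit set after the values had been seen, 10 were higher and 1 lower. Of the 24 shorter members 2 were higher and 2 lower. Among all genes with a mean of at least 100, 32.6% of the longer and 18.9% of the shorter ones were called higher, and 19.3% and 23.7% lower. Over the tested members and companion genes together, 51.2% of the longer and 15.1% of the shorter ones were called higher, and 2.33% and 3.95% lower. Short genes with large differences were also found among the companion genes, where Oip5 (723 coding bases, log2 fold change 2.13) and Ensa (363 bases, 1.60) were higher. The longest members, Cenpf and Cenpe, did not follow this pattern, at 8991 and 7413 coding bases and log2 fold changes of −0.27 and −0.21. Over the 43 members the Spearman correlation of coding length with the log2 fold change was 0.21, and over 152 companion genes it was 0.29. Over 10122 genes with a mean of at least 100 it was 0.05. These correlations are descriptions, since all points come from the same 4 libraries.

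**Figure D5:**
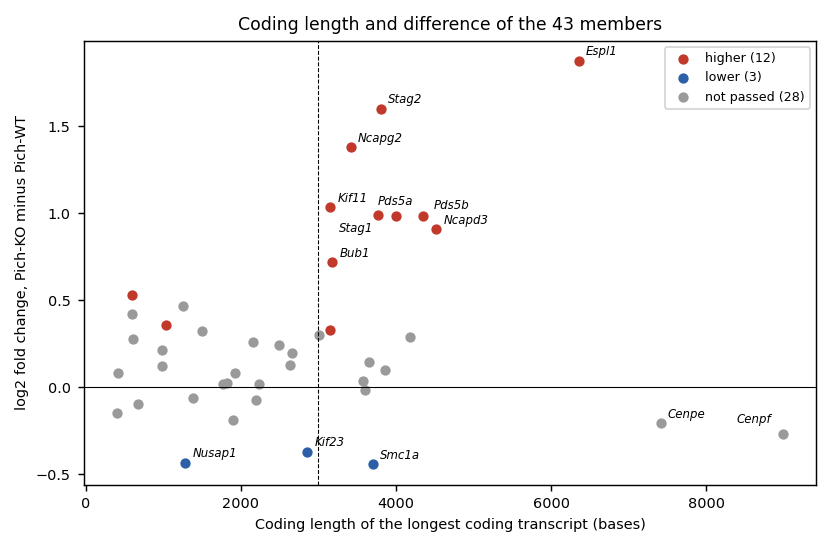
Coding length in bases (x axis) and log2 fold change of the 43 members (y axis, Pich-KO minus Pich-WT), with red for higher, blue for lower and grey for not passed, and a dashed line at 3000 bases. All 9 genes over 0.6 lie to the right of the line, and Cenpe and Cenpf, farther right, lie below 0.

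The level per kb differed as well. In Pich-WT LSK cells the 9 members with the largest differences had a median of 63.4 normalized counts per kb of exon, from 25.6 for Pds5a to 388 for Bub1. The other 34 had a median of 522, from 75.5 for Cenpf to 2081 for Cdc20. In Pich-KO LSK cells the medians were 160 and 500.5. The order of levels therefore stayed the same at its ends, with Cdc20 highest in both groups and Pds5a lowest.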

How the data were processed

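RNA of sorted LSK cells was sequenced by the authors with the Illumina TruSeq RNA kit of the labels, which does not mark strand. The authors deposited 1 table whose sample values are a signal: read counts per gene divided by 1 size factor per sample. Every value in a sample was a whole multiple of 1 step (tolerance 0.01 read, 100% of values), so reads were recovered. The submitters' processing notes name Bowtie 0.12.2 and the builds mm8 and mm9, without saying for what. The deposited coordinates equal those of GENCODE M21 on GRCm38 for 97.8% of 39163 genes and 41 of the 43 members, so GRCm38 is given. The counter is not given in the sources used here. The table's columns of fold changes and p-values were not used.

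The groups were compared with limma 3.58.1 (R 4.3.3; variance trend, two-sided) on log2(normalized count + 1) for genes whose mean was at least 1, with Benjamini-Hochberg adjustment over all genes at 0.05. edgeR 4.0.16 (quasi-likelihood, TMM) and DESeq2 1.42.0 were run on the recovered reads. Replicates were not within sampling noise of each other (chi-square per degree of freedom 17.7 for Pich-KO and 9.54 for Pich-WT). The limma fit was run on simulated counts in which 200 genes with a mean of at least 100 were changed. It recovered 50% of 2-fold and 100% of 4-fold changes. The simulated fit called 150 genes and the fit of the data 5572, so the adjusted threshold was stricter in the simulation. These shares therefore do not measure the power of the reported fit. A gene that did not pass may still differ. With none changed it called 0 genes. edgeR and DESeq2 were not run on simulated counts. Alternatives were another pseudocount, other filters, no variance trend, other scalings, a replicate block and leaving out each sample.

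The members, the 11 companion lists and the markers were chosen with earlier results of these data known. All members are accounted for. Of each companion list the genes with the highest and the lowest signed log2 fold change among those called are named, besides Oip5, which was chosen after its values were seen.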

Additional observations from a re-analysis of the deposited data

How the results depend on the processing

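The number of calls by limma depended on its variance trend, while edgeR called 15 members higher and 3 lower and DESeq2 13 and 3. In limma without the trend 0 genes were higher and 0 lower, with 0 and 0 members and 0 and 0 companion genes, and 9 members had an unadjusted p under 0.05. A pseudocount of 0.1 left 1 member lower (Nusap1 and Kif23 lost), and no filter on the mean left 9 members higher and 1 lower, with 2 companion genes lower. At least 10 reads in every sample gave 7 companion genes lower, as did edgeR with upper-quartile scaling. Total-read scaling left 9 members higher, without Pttg1, Bub1b and Aurkb, and DESeq2 lost Bub1b and added Spc24 and Aurka. The 9 members with a log2 fold change over 0.6 were called in each of these fits but the one without the trend. The cause of these changes was not tested.

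Replicate numbers are shared by the groups, and the labels do not say whether same-numbered samples are paired, for example by litter. Deviations of same-numbered samples had a correlation of 0.01 over 10544 genes. With 2 samples a group this cannot decide whether they are paired. With the replicate block 3122 genes were higher and 3874 lower, with 16 members higher (Ncapd2, Spc24, Aurka and Cdc20 added) and 3 lower.

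Leaving out 1 sample at a time, with limma or with edgeR (the latter added after seeing the data), gave 0 to 3685 genes higher and 0 to 3917 lower. These fits held 0 to 25 members higher and 0 to 4 lower, and 0 to 73 companion genes higher and 0 to 7 lower. Limma gave 0 calls in each fit but that without Pich-KO sample 1. A group left with 1 sample is assumed to vary like the other.

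Members near 0 changed sign. Under total-read scaling the log2 fold change was −0.0245 for Smc2, −0.035 for Ncaph2, −0.0391 for Esco2 and −0.0427 for Tpx2, and for Wapl it was 0.0021 by edgeR and 0.0127 with upper-quartile scaling. Without 1 sample the log2 fold change ran from −0.0469 to 0.1297 for Smc2, −0.1317 to 0.0193 for Ncaph, −0.0442 to 0.133 for Ncaph2, −0.1829 to 0.1687 for Wapl, −0.2914 to 0.3581 for Esco2 and −0.0464 to 0.3259 for Incenp. It ran from −0.0385 to 0.2304 for Birc5, −0.0163 to 0.2933 for Cdca8, −0.2596 to 0.0009 for Cenpa, −0.0743 to 0.2681 for Ndc80, −0.2135 to 0.0521 for Spc25 and −0.0432 to 0.0988 for Tpx2. No other member changed sign under any setting run.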
